A study of Homo sapiens with 10 samples.

Results

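The 37 genes described here act at the G1/S transition and in DNA replication: cyclins E and E2F1, the origin licensing factors, the MCM helicase and its activators, the replicative polymerases and primase, the sliding clamp and its loader, the enzymes that join Okazaki fragments, the enzymes of deoxynucleotide supply, and the CAF-1 subunits CHAF1A and CHAF1B. They were chosen by name. All 37 had a probe set with exactly 1 gene symbol. All 37 were among the 14277 genes tested, of 19775 genes with such a probe set, and all lay above the array's median on all 10 arrays.

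The arrays came from LNCaP and DU145, human prostate cancer lines taken from a lymph node and a brain metastasis. The treated group, labelled EOS R, was EOS 2 cells given ribavirin, with 1 array in each line. Ribavirin is an antiviral nucleoside analog known to inhibit inosine monophosphate dehydrogenase, an enzyme of guanine nucleotide synthesis, and its dose and duration are not given in the sources used here. The EOS group, with 2 arrays in each line, was cells transduced with a vector that puts GFP and puromycin resistance under OCT4 and SOX2 enhancers and then grown in puromycin for weeks. The PGK group, with 2 arrays in each line, was cells carrying GFP and puromycin resistance under the ubiquitous PGK promoter. All 10 arrays thus come from transduced cells. Whether the arrays of a group stand for separate cultures is not stated in the labels, and p-values therefore cover only the spread between arrays, perhaps a technical one.

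Before S phase, ORC, CDC6 and CDT1 load the MCM ring onto replication origins, a step called licensing. Cyclin E with its kinase, and E2F factors released from RB, then drive entry into S phase, when CDC45 and the GINS proteins join the MCM ring to form the active helicase. Polymerase alpha with primase starts each strand, the PCNA clamp is loaded by the RFC complex, and polymerases epsilon and delta extend the strands. Most of these genes are known E2F targets whose mRNA peaks around the start of S phase, and their level in a culture tracks the share of dividing cells. Total RNA from a culture cannot tell apart fewer cells in S phase and less RNA per cell.

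The promoters were searched for short words that stand for binding sites of cell cycle factors. RefSeq promoters (GRCh38.p14, 250 bases before to 50 after the start) matched 34 of the 37 genes. The words TTTGGCGC, TTTCCCGC, TTTGCCGC and TTTCGCGC, searched on both strands and allowed to overlap, stand for an E2F site. At least 1 such word was present in 18 of 34 promoters, 52.9%, against 5.11% of the 11467 promoters of tested genes and 3.33% of all 27305 promoters. The CCAAT word was present in 19 of 34, 55.9%, against 36.3% of the promoters of tested genes. The word TTTGAA, the CHR element known from G2/M genes, was in 1 of 34, that of RRM1, or 2.94%, against 9.97% of the promoters of tested genes. A matching word is a description of these letters and no evidence that a factor binds there. The 5 promoters printed here belong to genes whose line differences or array differences carry the results that follow. Each line gives the 200 bases before the start, 5′ to 3′ on the gene's strand, with E2F words of either strand in capitals.
MCM3, chr6:52284743-52284942, minus strand: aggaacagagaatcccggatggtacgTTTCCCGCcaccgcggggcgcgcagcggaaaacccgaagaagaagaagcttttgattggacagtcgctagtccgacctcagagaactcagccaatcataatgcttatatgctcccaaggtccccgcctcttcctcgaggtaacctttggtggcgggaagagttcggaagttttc
MCM6, chr2:135876444-135876643, minus strand: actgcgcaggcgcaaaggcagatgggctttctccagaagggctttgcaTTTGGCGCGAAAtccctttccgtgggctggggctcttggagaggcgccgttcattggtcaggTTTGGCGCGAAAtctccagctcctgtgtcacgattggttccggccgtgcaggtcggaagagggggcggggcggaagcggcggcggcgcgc
MCM7, chr7:100101398-100101597, minus strand: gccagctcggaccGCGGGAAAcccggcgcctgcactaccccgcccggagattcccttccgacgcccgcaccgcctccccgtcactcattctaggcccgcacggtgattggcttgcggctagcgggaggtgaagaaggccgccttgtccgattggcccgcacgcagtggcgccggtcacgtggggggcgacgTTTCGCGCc
PCNA, chr20:5126623-5126822, minus strand: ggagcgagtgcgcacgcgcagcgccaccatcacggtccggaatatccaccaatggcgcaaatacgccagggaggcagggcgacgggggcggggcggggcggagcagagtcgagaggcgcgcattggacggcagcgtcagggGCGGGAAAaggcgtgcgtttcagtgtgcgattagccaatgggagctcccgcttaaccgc
RFC3, chr13:33817949-33818148, plus strand: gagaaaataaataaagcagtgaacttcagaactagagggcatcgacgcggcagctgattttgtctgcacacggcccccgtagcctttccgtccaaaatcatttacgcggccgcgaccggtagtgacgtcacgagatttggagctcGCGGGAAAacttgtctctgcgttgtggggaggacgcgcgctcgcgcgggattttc
In MCM6 the capitals hold 4 overlapping words in 2 stretches of the same letters. MCM7 has 2 words, one near each end of the printed stretch, and MCM3, PCNA and RFC3 have 1 each, besides a word of MCM3 that begins at -4, runs across the start and is not marked in the printed stretch. E2F words were found in the promoters of genes higher in LNCaP (MCM7, PCNA, RFC3), and also in those of genes lower in LNCaP (MCM3, MCM6), as described next. ORC6, RRM1 and RRM2, also called higher in LNCaP, had no E2F word. The genes without a matching promoter were MCM4, MCM5 and CCNE2.

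The values are log2(scaled intensity + 16), after each array was brought to a 2% trimmed mean of 500, and a level is comparable between arrays for the same gene but not between genes. Deposited trimmed means were 500 on each of the 4 arrays numbered 1 and between 96.6 and 126.5 on the 6 arrays numbered 2, which include both EOS R arrays. The 3′ probe set of ACTB read 3.20 to 3.99 times its 5′ probe set on arrays numbered 2 and 1.24 to 1.51 times on arrays numbered 1, a ratio used to judge how complete the RNA was. For GAPDH the same ratio differed less, at 1.09 to 1.22 on arrays numbered 2 and 0.96 to 1.06 on arrays numbered 1. All 7 luminal androgen-responsive markers, KLK3 among them, were called higher in LNCaP than in DU145, LNCaP being known as androgen responsive. Of these, KLK3, KLK2, TMPRSS2 and HOXB13 lay below the array's median on all 5 DU145 arrays, so no size is given.

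Some of the 37 genes differed between LNCaP and DU145, in both directions, at a share near that of all tested genes. Among the 37 genes, 11 were called higher and 4 lower in LNCaP than in DU145 over the PGK and EOS arrays (limma, Benjamini-Hochberg adjusted p under 0.05). Of all tested genes, 22.6% were called higher and 23.7% lower, together 46.3%, so that the 15 of 37 called, 40.5%, are near the background. A difference above 0 was found for 24 genes, 64.9% against 49.7% of all tested genes. The median difference of the 37 genes was 0.24, against -0.01 over all tested genes, and the median absolute difference was 0.36, against 0.57. The largest differences between the lines were 3.18-fold for POLE2, lower in LNCaP, and 3.06-fold for GINS1, higher in LNCaP.

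**Figure D1:**
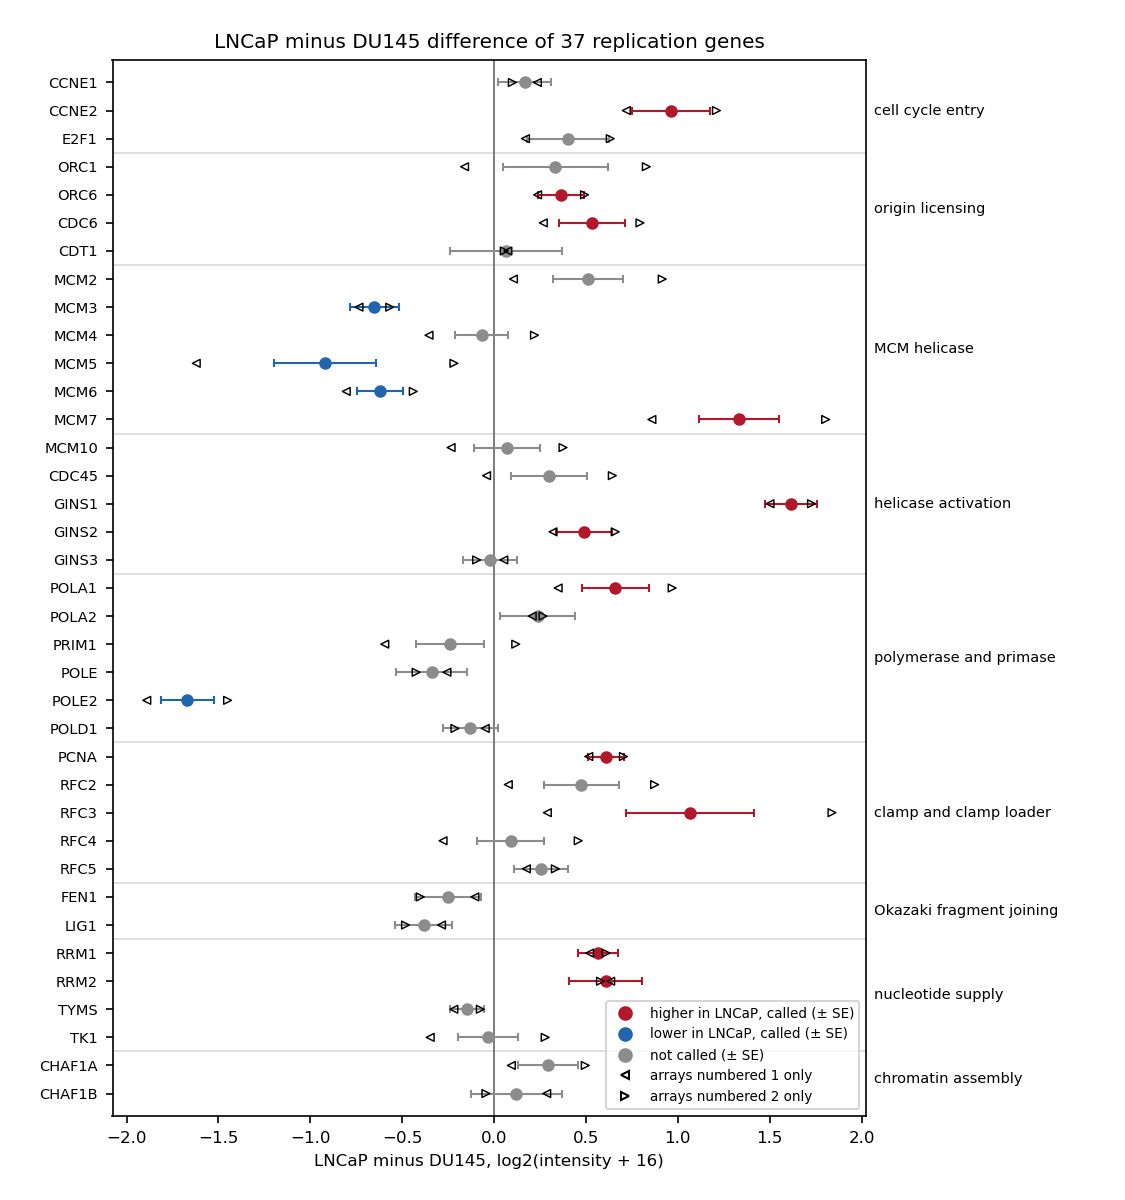
Difference in log2(intensity + 16) between LNCaP and DU145 for the 37 genes, ordered by role, as filled circles with standard errors, red where called higher in LNCaP, blue where called lower and grey where not called. Open triangles give the same difference from arrays numbered 1 (pointing left) or 2 (pointing right) alone; POLE2 lies at -1.67 and GINS1 at 1.61, and the triangles of RFC3, at 0.29 and 1.84, are far apart.

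Subunits of the MCM ring differed in opposite directions. MCM7 (210983_s_at) read 12.17 on the EOS R array, 11.82 and 12.40 on the EOS arrays and 11.97 and 12.83 on the PGK arrays of LNCaP, against 10.35 on the EOS R array, 10.94 and 10.80 on the EOS arrays and 11.14 and 10.82 on the PGK arrays of DU145. Every LNCaP array exceeded every DU145 array, and the difference was 1.33 ± 0.22 (SE, adjusted p = 0.00123), or 2.52-fold. MCM6 (201930_at) read 12.35 on the EOS R array, 12.38 and 12.32 on the EOS arrays and 12.62 and 12.94 on the PGK arrays of LNCaP, against 13.09 on the EOS R array, 13.29 and 13.11 on the EOS arrays and 13.32 and 13.02 on the PGK arrays of DU145. All 5 LNCaP arrays lay below all 5 DU145 arrays, by -0.62 ± 0.13 (SE, adjusted p = 0.00377). MCM3 (201555_at) read 11.71 on the EOS R array, 11.95 and 11.86 on the EOS arrays and 11.85 and 12.05 on the PGK arrays of LNCaP, against 12.24 on the EOS R array, 12.83 and 12.45 on the EOS arrays and 12.43 and 12.60 on the PGK arrays of DU145. It too had no overlap, with LNCaP lower by a difference of -0.65 ± 0.13 (SE, adjusted p = 0.00384). MCM5 (216237_s_at) read 10.57 on the EOS R array, 10.18 and 10.70 on the EOS arrays and 10.65 and 11.69 on the PGK arrays of LNCaP, against 10.76 on the EOS R array, 12.07 and 11.39 on the EOS arrays and 12.00 and 11.44 on the PGK arrays of DU145. Its lines overlapped, since LNCaP PGK 2 lay above DU145 PGK 2, DU145 EOS 2 and DU145 EOS R, and the difference was -0.92 ± 0.28 (SE, adjusted p = 0.0244). MCM2 had a difference of 0.51 that missed the threshold (adjusted p = 0.057), and MCM4 one of -0.07.

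Of the genes of cell cycle entry, CCNE2, the cyclin E2 that activates CDK2, was called. CCNE2 (205034_at) read 11.33 on the EOS R array, 11.04 and 11.49 on the EOS arrays and 11.34 and 12.07 on the PGK arrays of LNCaP, against 10.28 on the EOS R array, 10.75 and 10.46 on the EOS arrays and 10.19 and 10.68 on the PGK arrays of DU145. The lines did not overlap, and LNCaP was higher by 0.96 ± 0.21 (SE, adjusted p = 0.00582), or 1.95-fold. The other cyclin E gene, CCNE1, differed by 0.17 and E2F1, an activating E2F, by 0.40, and neither passed (adjusted p = 0.378 and 0.176). Of 4 licensing genes, ORC6, the smallest ORC subunit, was higher in LNCaP by 0.36 ± 0.12 (SE, adjusted p = 0.0403), with no overlap between the lines. CDC6, which recruits MCM with CDT1, was higher by 0.53 ± 0.18 (SE, adjusted p = 0.039), but its lines overlapped. ORC1 and CDT1 were not called, at 0.33 and 0.06. The probe sets of ORC6, CDT1 and CHAF1A carry the suffix x_at, which marks probes similar to other sequences.

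Among the genes that turn the loaded MCM ring into a helicase, the GINS subunits GINS1 and GINS2 were called higher in LNCaP. GINS1 (206102_at) read 12.70 on the EOS R array, 12.95 and 12.67 on the EOS arrays and 12.74 and 13.05 on the PGK arrays of LNCaP, against 11.16 on the EOS R array, 11.50 and 11.16 on the EOS arrays and 11.18 and 11.11 on the PGK arrays of DU145. The gap between the lowest LNCaP and the highest DU145 array was wider than the range within either line, and the difference was 1.61 ± 0.14 (SE, adjusted p = 3.61e-05). GINS2 was higher by 0.49 ± 0.15 (SE, adjusted p = 0.0281), again without overlap. GINS3 differed by -0.02, MCM10 by 0.07 and CDC45 by 0.30, and these 3 were not called. The other retained probe sets of MCM10 gave -0.17 and -0.54.

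The polymerases also split. POLE2 (205909_at), the second subunit of polymerase epsilon, read 10.51 on the EOS R array, 10.39 and 10.59 on the EOS arrays and 10.43 and 10.87 on the PGK arrays of LNCaP, against 12.18 on the EOS R array, 12.29 and 12.22 on the EOS arrays and 12.31 and 12.14 on the PGK arrays of DU145. LNCaP was lower on all its arrays, with a difference of -1.67 ± 0.14 (SE, adjusted p = 3.33e-05), while POLE, the catalytic subunit, differed by -0.34 and was not called (adjusted p = 0.188). POLA1, the catalytic subunit of polymerase alpha, read 10.01 on the EOS R array, 9.94 and 10.26 on the EOS arrays and 9.95 and 10.08 on the PGK arrays of LNCaP, against 9.16 on the EOS R array, 9.76 and 9.19 on the EOS arrays and 9.43 and 9.20 on the PGK arrays of DU145. It was higher in LNCaP without overlap, by 0.66 ± 0.18 (SE, adjusted p = 0.0168). POLA2, PRIM1 and POLD1, at 0.24, -0.24 and -0.13, were not called.

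All 5 clamp and clamp loader genes had a difference above 0, of which 2 were called. PCNA (201202_at), the clamp, read 13.84 on the EOS R array, 13.88 and 14.07 on the EOS arrays and 13.97 and 14.03 on the PGK arrays of LNCaP, against 13.31 on the EOS R array, 13.48 and 13.37 on the EOS arrays and 13.34 and 13.33 on the PGK arrays of DU145. The lines did not overlap, and LNCaP was higher by 0.61 ± 0.10 (SE, adjusted p = 0.00103), or 1.53-fold. RFC3, a small subunit of the loader, was higher by 1.06 ± 0.35 (SE, adjusted p = 0.0343) with a larger error, and its 2 other retained probe sets differed by 1.12 and 1.05. RFC2, RFC4 and RFC5 were not called, at 0.48, 0.09 and 0.25. The other retained probe sets of RFC5 gave 1.10 and 0.21, and that of RFC2 gave 0.67.

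In nucleotide supply, both subunits of ribonucleotide reductase, which makes deoxynucleotides, were called higher in LNCaP. RRM1 (201477_s_at) read 13.74 on the EOS R array, 13.83 and 13.79 on the EOS arrays and 13.67 and 13.97 on the PGK arrays of LNCaP, against 13.29 on the EOS R array, 13.38 and 13.29 on the EOS arrays and 13.08 and 13.25 on the PGK arrays of DU145. Its lines did not overlap, and the difference was 0.56 ± 0.11 (SE, adjusted p = 0.00287). RRM2 differed by 0.61 ± 0.20 (SE, adjusted p = 0.0344) with overlap between the lines, and its other retained probe set gave -0.19. Thymidylate synthase (TYMS) and thymidine kinase (TK1) differed by -0.15 and -0.03 and were not called. The flap endonuclease FEN1 and the ligase LIG1, which finish Okazaki fragments, had differences of -0.25 and -0.38. LIG1 was lower in LNCaP on all arrays without being called (adjusted p = 0.0727). CHAF1A and CHAF1B, the subunits that deposit histones behind the fork, differed by 0.30 and 0.12 and were not called.

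Of 11 other retained probe sets of the called genes, 10 had the same sign of the line difference, the exception being the one of RRM2. Over all 37 genes, called or not, 22 of 30 such probe sets had the same sign. The EOS R arrays, which stayed out of the contrast, gave -1.68 for POLE2, 1.55 for GINS1, 1.82 for MCM7 and 1.71 for RFC3. For the called genes MCM5 and RRM2 they gave smaller differences, -0.19 and 0.16. E2F1 and CCNE1, not called, were at -0.23 and -0.32 there, against 0.40 and 0.17 in the contrast. EOS R cells are treated EOS 2 cells counted under number 2, where RFC3 differed by 1.84, against 0.29 on arrays numbered 1. In all, 13 of the 37 genes, 35.1%, had no overlap between the 5 LNCaP and the 5 DU145 arrays, 9 higher and 4 lower, against 42.5% of all tested genes. Leaving out single arrays left 9 to 15 genes called, with 9 without DU145 PGK 1, DU145 PGK 2 or DU145 EOS 2. Those whose call no single array ended were CCNE2, MCM3, MCM6, MCM7, GINS1, POLE2, PCNA and RRM1. Arrays of the same line and number deviated together, so line and number were also fitted as a random block, which keeps the spread between numbers in the error and was chosen after seeing the data. That limma fit called 11 of the 37 genes, 7 higher and 4 lower, against 38.9% of all tested genes. ORC6, CDC6, GINS2 and RRM2 were lost, at adjusted p of 0.0821, 0.0822, 0.0638 and 0.0909. As a fixed replicate block, which takes that spread out of the error of a difference between lines, they gave 18 of 37 and 56.1% of all tested genes, and the calls of MCM2, RFC2 and LIG1 gained there are not counted here. On the unscaled deposited values, 0 of the 37 genes and 475 of all tested genes were called by limma, since those values keep the difference in scale between arrays of a group, and the PGK arrays alone called 9.

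The median line difference was 0.38 on arrays numbered 2 and 0.08 on arrays numbered 1, which led to a direct comparison of the numbers within each line. In LNCaP, 4 of the 37 genes were called higher on arrays numbered 2 and 0 lower (limma), where 3.61% of all tested genes were called higher and 2.86% lower. At an unadjusted p under 0.05, 13 were higher and 2 lower, 40.5% against 23.7% of all tested genes. RFC3 read 13.17 (EOS) and 13.03 (PGK) on the LNCaP arrays numbered 2, against 11.76 (EOS) and 11.79 (PGK) on those numbered 1. Both differences had the same direction, and the mean was 1.33 ± 0.16 (SE, adjusted p = 0.00367). MCM7 differed by 0.72 ± 0.15 (SE, adjusted p = 0.0313), ORC1, the largest ORC subunit, by 0.98 ± 0.21 (SE, adjusted p = 0.0375) and MCM5 by 0.78 ± 0.17 (SE, adjusted p = 0.0375). The LNCaP EOS R array, which counts among those numbered 2, read 12.96 for RFC3. Without LNCaP PGK 1 or without LNCaP PGK 2, RFC3 alone was called, and without LNCaP EOS 1 or LNCaP EOS 2, ORC1 and MCM7 were lost and MCM2 was gained. Without the intensity trend in limma all 4 calls were lost (adjusted p of 0.0833 to 0.167), with no filter ORC1 was lost (0.0572), and with the mean of all probe sets MCM5 was lost (0.0764). The number moved with the deposited scale and the ACTB ratio given above, whose part in the result was not tested.

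In DU145 the same comparison called 0 of the 37 genes and 0 of all tested genes (limma), with 3 of the 37 and 1109 of all genes, or 7.77%, at an unadjusted p under 0.05. MCM5 read 11.39 (EOS) and 11.44 (PGK) on the DU145 arrays numbered 2, against 12.07 (EOS) and 12.00 (PGK) on those numbered 1. The numbers did not overlap, but the difference of -0.62 ± 0.17 (SE, adjusted p = 0.472) missed the threshold. CDT1, the licensing factor that brings MCM to origins, differed by 0.76, TK1 by -0.45 and POLA1 by -0.40, with adjusted p of 0.466, 0.542 and 0.659 from limma. The other retained probe set of CDT1 gave -0.06, and that of TK1 gave -0.42. On the probe sets used, all 6 MCM genes had a difference above 0 in LNCaP and below 0 in DU145. Other retained probe sets did not all keep these signs. Those of MCM4 gave -0.33, 0.27 and -0.49 in LNCaP, and -0.89, -0.37 and -0.68 in DU145. That of MCM6 gave -0.31 in LNCaP and 0.09 in DU145, while those of MCM5 and MCM7 kept both signs. The difference between the lines, LNCaP minus DU145, was called for RFC3 and MCM5, against 0.967% of all tested genes.

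**Figure D2:**
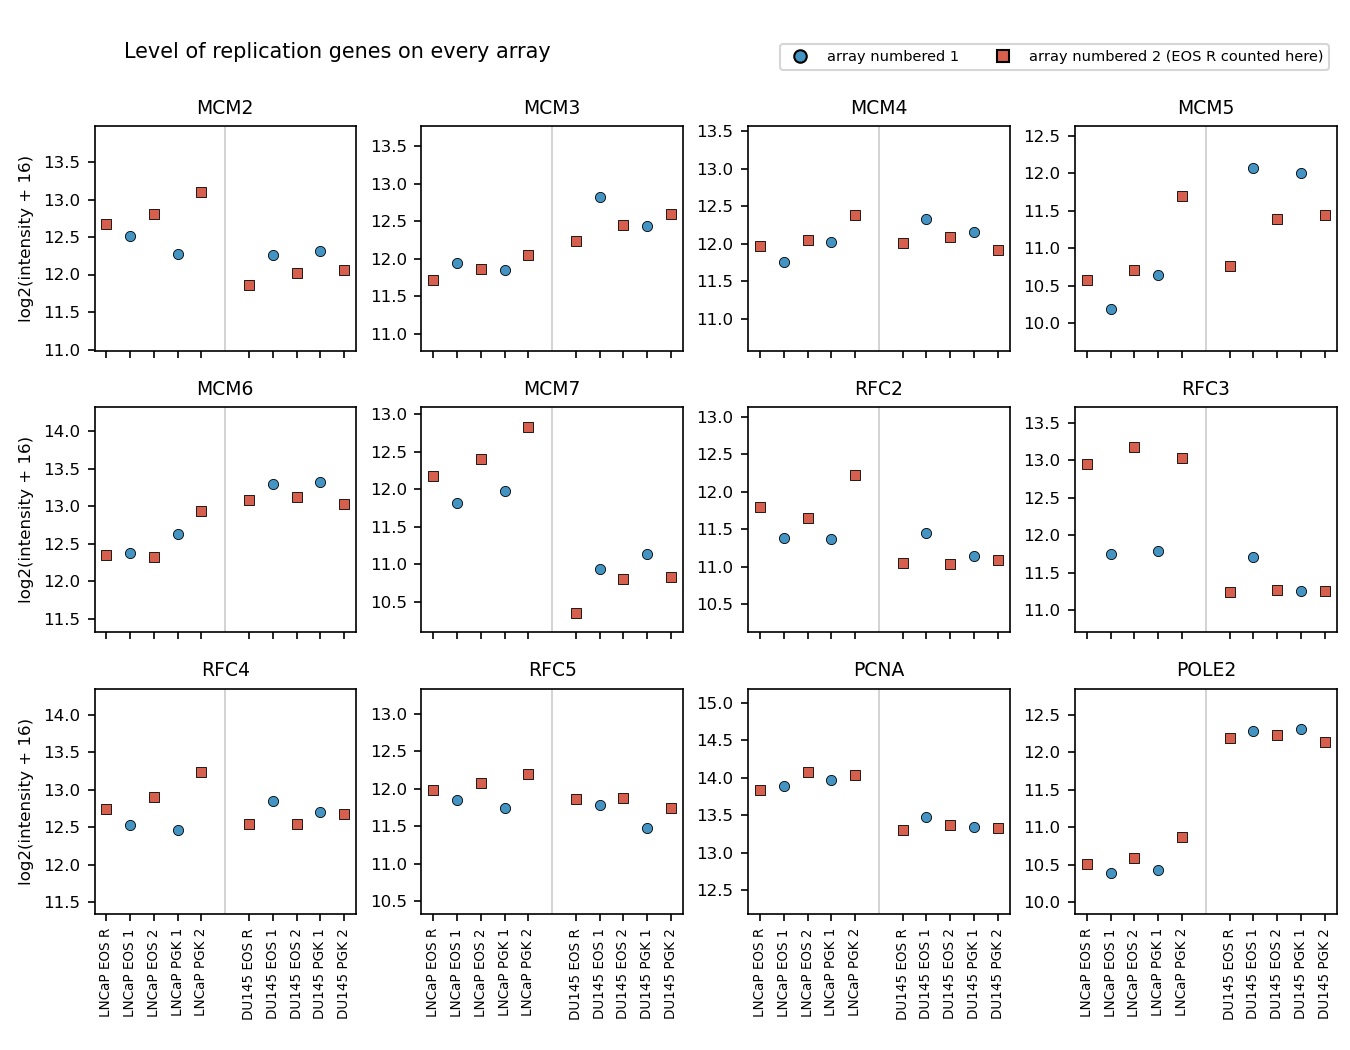
Level in log2(intensity + 16) of 12 replication genes on the 10 arrays, LNCaP left of DU145 and EOS R, EOS and PGK within each line. Squares are arrays numbered 2 and circles arrays numbered 1, each panel spans 3 log2 units, and RFC3 in LNCaP lies between 12.96 and 13.17 on the squares and at 11.76 and 11.79 on the circles.

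EOS selection was the comparison that the series names. In neither line did it move any of the 37 genes past the test. EOS minus PGK called 0 of the 37 genes and 0 of all tested genes by limma in LNCaP, in DU145, in their mean and in their difference. At an unadjusted p under 0.05 there were 2 in LNCaP, where 4.17% of all tested genes passed, and 0 in DU145, where 1.57% did. With the replicate block limma also called 0 genes of all tested, with 1296 of all genes in LNCaP and 478 in DU145 at an unadjusted p under 0.05. The median standard error of a member's difference in 1 line was 0.25. An exact permutation test of 2 arrays against 2 cannot go below p = 0.333.

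In LNCaP the 4 genes of smallest p were MCM6, POLE, MCM5 and CDC6. MCM6 read 12.38 and 12.32 on the EOS arrays, against 12.62 and 12.94 on the PGK arrays, of LNCaP. The EOS arrays were both below the PGK arrays, with a difference of -0.43 ± 0.18 (SE, adjusted p = 0.999) at an unadjusted p of 0.0394. POLE read 8.67 and 8.60 on the EOS arrays, against 8.23 and 7.73 on the PGK arrays, of LNCaP. It went the other way, both EOS arrays being above both PGK arrays, by 0.65 ± 0.28 (SE, adjusted p = 0.999). MCM5 read 10.18 and 10.70 on the EOS arrays, against 10.65 and 11.69 on the PGK arrays, of LNCaP. The groups overlapped, because PGK 1 lay below EOS 2, and the difference was -0.72 ± 0.39 (SE, adjusted p = 0.999). CDC6 read 10.64 and 10.67 on the EOS arrays, against 10.89 and 11.20 on the PGK arrays, of LNCaP, a difference of -0.39 with both EOS arrays below both PGK arrays.

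All 6 MCM genes had a LNCaP difference below 0, with a median of -0.29 and a range of -0.72 to -0.03. In the pair numbered 2 all 6 were below 0, and in the pair numbered 1 MCM2 and MCM3 were above 0, at 0.24 and 0.10. Over the 37 genes, 28 were below 0 in the pair numbered 2, 75.7% against 45.7% of all tested genes, and 14 in the pair numbered 1, 37.8% against 44.2%. The pair medians were -0.21 (pair 2) and 0.07 (pair 1), and those of all tested genes 0.05 and 0.04. Past 1.5-fold in pair 2 were POLE, higher at 0.86, and MCM5, MCM6 and RRM2, lower at -0.99, -0.62 and -0.79, where 17.3% of all tested genes were past it higher and 10.7% lower. The median difference over both pairs was -0.04, but it was 0.14 without LNCaP PGK 2 and -0.24 without LNCaP PGK 1. LNCaP PGK 2 had the highest median level of the 37 genes of all arrays, 11.87, against 11.49 on LNCaP EOS 2.

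In DU145, 27 of the 37 genes had a difference above 0, 73% against 47.2% of all tested genes, with a median of 0.09. The genes of smallest p were TYMS, MCM10, RRM2 and RRM1. TYMS read 14.33 and 14.25 on the EOS arrays, against 14.03 and 14.04 on the PGK arrays, of DU145. Both EOS arrays were above both PGK arrays, by 0.25 ± 0.13 (SE, adjusted p = 1). MCM10, which helps the helicase to start, read 11.16 and 10.58 on the EOS arrays, against 10.46 and 10.52 on the PGK arrays, of DU145. Both EOS arrays lay above, though mostly through EOS 1, with a difference of 0.38 ± 0.26 (SE, adjusted p = 1). RRM2 read 13.26 and 12.59 on the EOS arrays, against 12.50 and 12.67 on the PGK arrays, of DU145, and RRM1 13.38 and 13.29 on the EOS arrays, against 13.08 and 13.25 on the PGK arrays, of DU145. For RRM2, EOS 2 lay below PGK 2, so that the difference of 0.34 came from the pair numbered 1, and RRM1 differed by 0.17.

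In DU145 too the genes lay higher in pair 1 than in pair 2. In pair 1, 29 of 37 genes were above 0, 78.4% against 46.6% of all tested genes, with a median of 0.22, and in pair 2, 16 were, 43.2% against 50.4%, with a median of -0.03. In pair 1, RRM2 and MCM10 were past 1.5-fold higher, at 0.77 and 0.69, and CDT1 past it lower, at -0.67, where 6.09% and 11.8% of all tested genes were. Over both pairs CDT1 was at -0.29, but at 0.19 on its other retained probe set. In pair 2, 0 of the 37 genes and 14.6% of all tested genes were past it in either direction. Without DU145 EOS 1 the median over the 37 genes was -0.06 and without DU145 EOS 2 it was 0.28. All 6 fibroblast markers were measured, and their summed scaled intensity was 3169 on DU145 EOS R, 426 and 2851 on the EOS arrays, and 454 to 769 on the PGK arrays. POSTN, periostin, was at 10.99 on DU145 EOS R, 6.75 and 10.77 on the EOS arrays and 5.58 and 7.24 on the PGK arrays, while COL1A2, DCN and LUM lay below the array's median on all DU145 arrays. Of the 4 markers tested, 2 were above and 2 below 0 in EOS minus PGK in DU145, and their part in the result was not tested.

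Across both lines, 1 gene of 37, POLE, was above 0 in all 4 pairs, against 7% of all tested genes, and 1, MCM7, was below 0 in all 4, against 5.2%. At an unadjusted p under 0.05, 1 of the 37 genes and 2.04% of all tested genes passed in the mean over the lines. That gene was POLE, at 0.45 ± 0.19 (SE, adjusted p = 1), followed by TYMS at 0.15, MCM6 at -0.20 and MCM5 at -0.36. The difference between the lines, LNCaP minus DU145, was below 0 for 29 of the 37 genes, 78.4% against 44.4% of all tested genes, with a median of -0.19. It called 0 genes by limma, with 0 of the 37 and 3.24% of all tested genes at an unadjusted p under 0.05. The smallest p were those of MCM10 (-0.70), MCM6 (-0.47), RRM2 (-0.72) and MCM4 (-0.47), each with an adjusted p of 1.

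**Figure D3:**
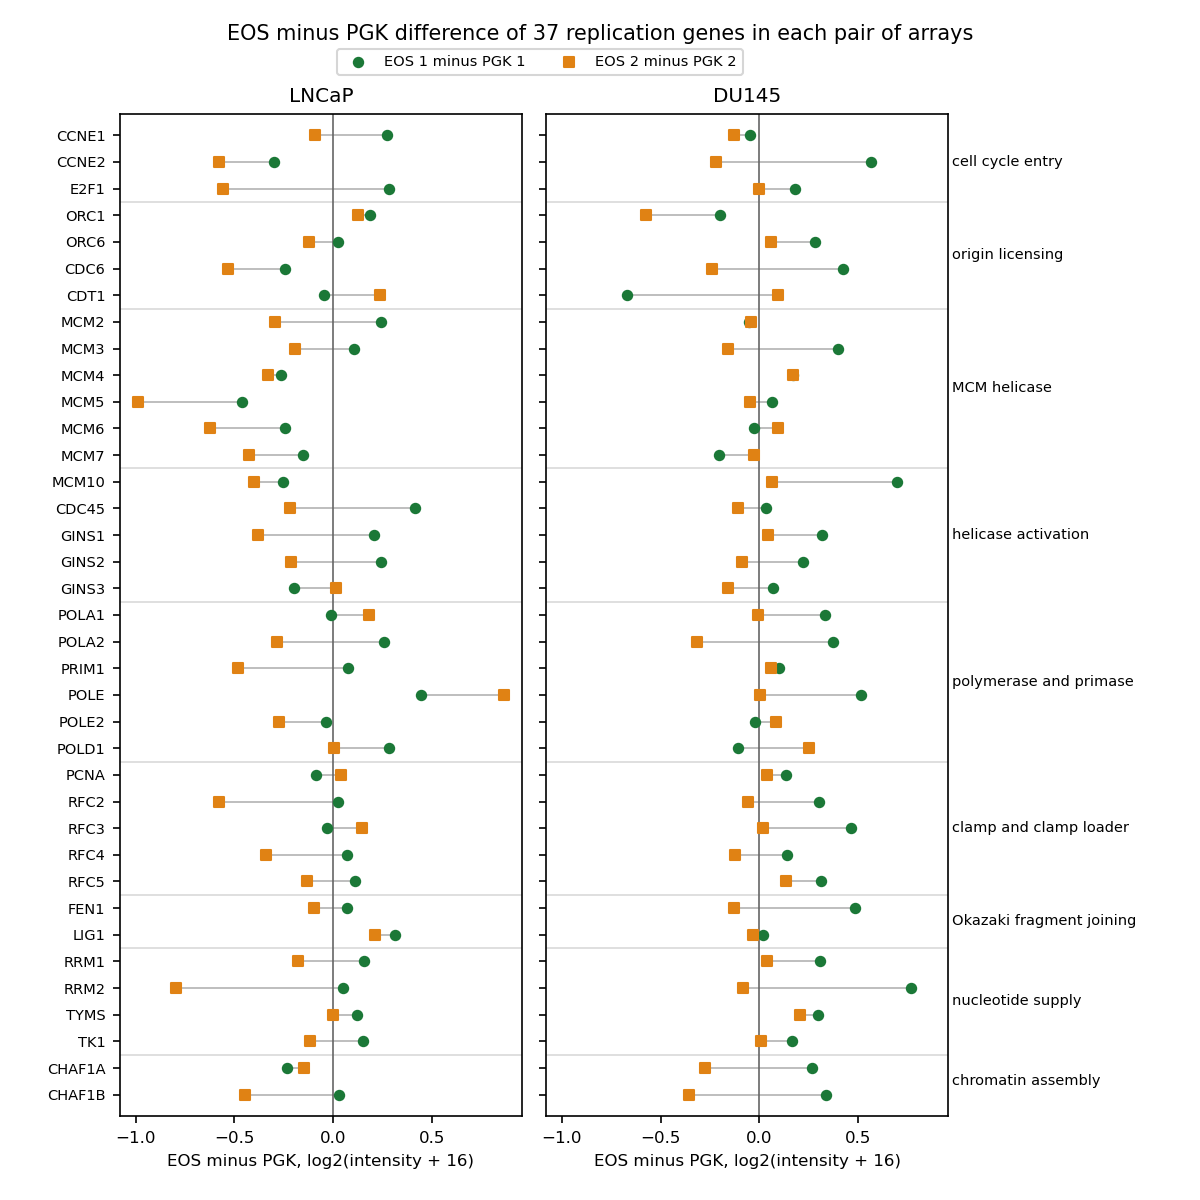
EOS minus PGK difference in log2(intensity + 16) for the 37 genes in LNCaP (left) and DU145 (right), with squares for pair 2 and circles for pair 1 of each line, joined by a line for each gene. Squares lie mostly left of 0 in LNCaP (28 of 37) and circles mostly right of 0 in DU145 (29 of 37), and POLE is the gene with both markers farthest right in LNCaP.

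Ribavirin-treated EOS R cells were set against the untreated EOS 2 cells that the labels tie them to, with 1 array of each in each line. Within a line these are values with no test. The fit over both lines, with line as a term, called 0 of the 37 genes and 1 of all tested genes, 0.007% (limma). At an unadjusted p under 0.05, 4 of the 37 genes were lower and 0 higher, 10.8% against 5.66% of all tested genes in either direction. These were MCM7, MCM5, MCM10 and FEN1.

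MCM7 read 12.17 on EOS R, against 12.40 on EOS 2, in LNCaP, and 10.35 on EOS R, against 10.80 on EOS 2, in DU145. It was lower on EOS R in both lines, with a mean difference of -0.33 ± 0.10 (SE, adjusted p = 0.857), and its other probe set gave -0.23. MCM5 read 10.57 on EOS R, against 10.70 on EOS 2, in LNCaP, and 10.76 on EOS R, against 11.39 on EOS 2, in DU145. It was lower in both, mostly in DU145, with a mean of -0.38 ± 0.13 (SE, adjusted p = 0.857) and -0.06 on its other probe set. MCM10 read 10.45 on EOS R, against 10.72 on EOS 2, in LNCaP, and 10.16 on EOS R, against 10.58 on EOS 2, in DU145. The mean was -0.34 ± 0.12 (SE, adjusted p = 0.857), but its 2 other retained probe sets gave 0.01 and 0.43, and the mean of its probe sets turned to 0.03. FEN1, the flap endonuclease, read 12.38 on EOS R, against 12.40 on EOS 2, in LNCaP, and 12.26 on EOS R, against 12.78 on EOS 2, in DU145, with a mean of -0.27 ± 0.11 (SE, adjusted p = 0.87) that came from DU145. The other retained probe set of FEN1 gave a mean of -0.05, with 0.06 in LNCaP and -0.17 in DU145.

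Over the 37 genes, 28 had a mean difference below 0, 75.7% against 50.1% of all tested genes, with a median of -0.08. Both lines were below 0 for 20 genes, 54.1% against 25.6%. LNCaP had 28 below 0, where 52.7% of all tested genes were, with a median of -0.09. DU145 had 25 below 0, where 47.3% of all tested genes were, with a median of -0.03. Past 1.5-fold were 0 genes in LNCaP, where 14.3% of all tested genes were, and MCM5 alone in DU145, where 13.7% were. The 4 largest differences were those of ORC1 (-0.44), POLE (-0.37), CCNE1 (-0.33) and MCM10 (-0.27) in LNCaP, and those of MCM5 (-0.63), FEN1 (-0.53), MCM7 (-0.44) and MCM10 (-0.42) in DU145.

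By role, 5 of the 6 MCM genes in LNCaP and all 6 in DU145 were below 0, the exception being MCM6 in LNCaP at 0.03. The other retained probe sets of MCM4 gave 0.13, 0.03 and 0.18 in LNCaP, and -0.01, 0.02 and 0.26 in DU145. Those of MCM5, MCM6 and MCM7 kept the sign of the probe set used in each line. All 6 polymerase and primase genes were below 0 in LNCaP and 5 of 6 in DU145, PRIM1 being at 0.14 there. The 4 licensing genes had a mean difference between -0.09 and 0.03, while the other retained probe sets of CDT1 and CDC6 gave -0.49 and -0.11. ORC1 and E2F1 had opposite signs in the lines, at -0.44 and -0.17 in LNCaP and 0.25 and 0.41 in DU145. The other retained probe set of E2F1 was above 0 in both lines, at 0.51 in LNCaP and 0.60 in DU145. In deoxynucleotide supply, RRM1 was at -0.05 in LNCaP and 0.00 in DU145, and RRM2 at 0.01 in LNCaP and 0.07 in DU145.

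The untreated EOS 2 arrays are also part of the EOS minus PGK comparison, so the values of both are given side by side only. MCM7 in LNCaP was at -0.23 for EOS R minus EOS 2 and at -0.43 for EOS 2 minus PGK 2, and MCM5 was at -0.14 and -0.99. In DU145, MCM7 was at -0.44 for EOS R minus EOS 2 and at -0.03 for EOS 2 minus PGK 2, and MCM5 was at -0.63 and -0.05.

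**Figure D4:**
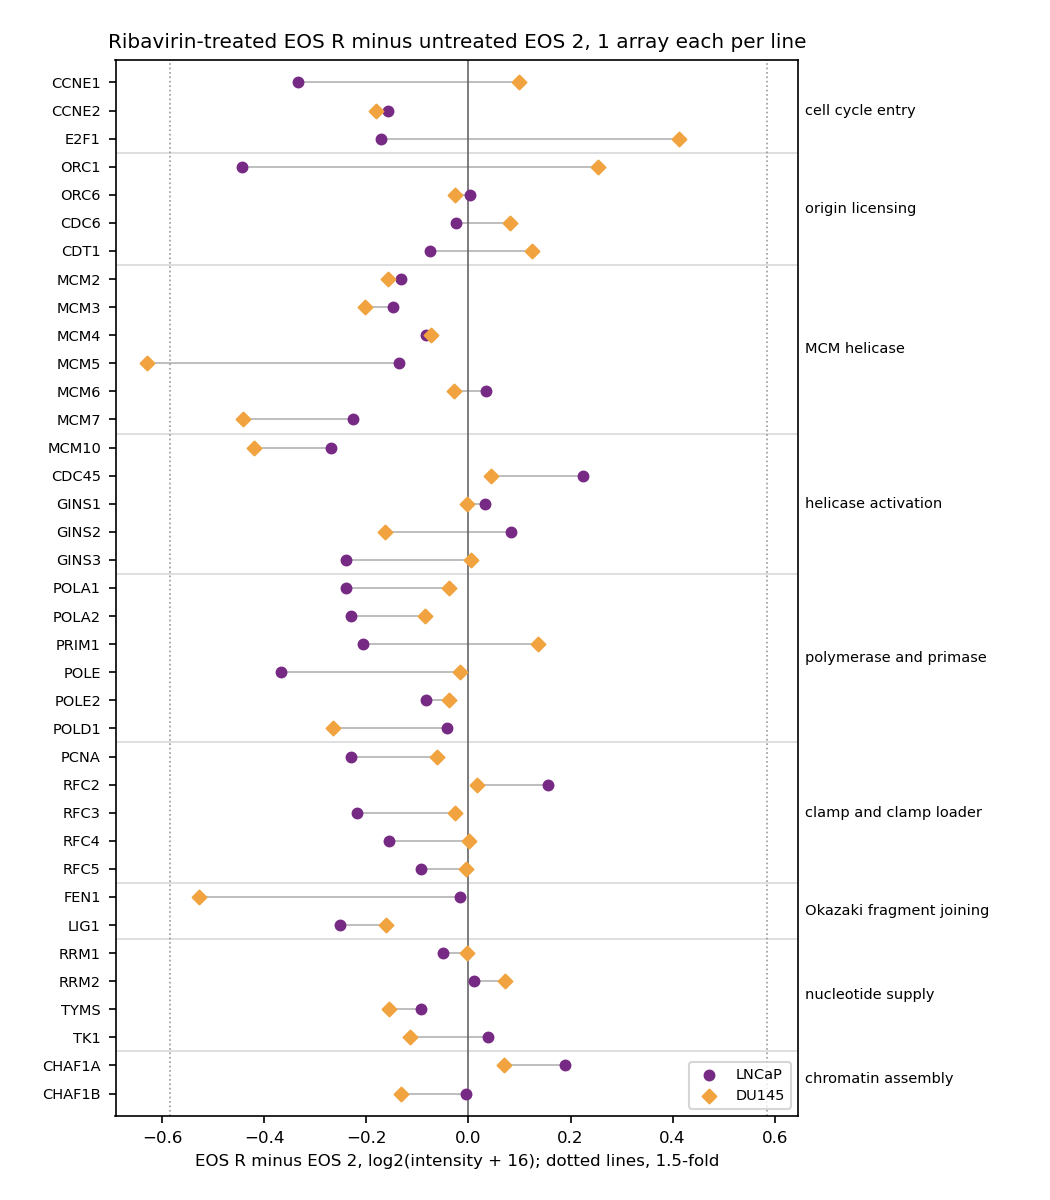
EOS R minus EOS 2 difference in log2(intensity + 16) of the 37 genes in LNCaP (circles) and DU145 (diamonds), 1 array against 1 in each line. Dotted lines mark 1.5-fold; MCM5 in DU145 at -0.63 is the only marker beyond them, and 20 genes have both markers left of 0.

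Other genes of the pathway were listed by name, with earlier results of these data known. Of 43 other replication genes, 42 were tested, and 9 were higher and 8 lower in LNCaP than in DU145, with a median difference of 0.13, where 22.6% of all tested genes were called higher and 23.7% lower. Without DU145 PGK 1 or without DU145 PGK 2, 5 were higher and 1 lower, and 9 and 2 without DU145 EOS 1. The fewest lower calls without an LNCaP array were 3, without LNCaP EOS 1. With line and number as a random block, 6 were higher and 4 lower. ORC5, an ORC subunit, was higher by 1.21 ± 0.13 (SE, adjusted p = 0.000142), RNASEH2A, which removes RNA from DNA, by 1.00 ± 0.14 (SE, adjusted p = 0.000625) and CDC25A, a phosphatase that activates CDK2, by 1.46 ± 0.27 (SE, adjusted p = 0.00227). POLD3, a subunit of polymerase delta, was lower by a difference of -0.57 ± 0.13 (SE, adjusted p = 0.00678). All were from limma.

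Of 27 RB and E2F regulators, 25 were tested, and 5 were higher and 4 lower in LNCaP, with a median of 0.04 and the same shares of all tested genes as background. The median ranged from -0.03, without LNCaP EOS 2, to 0.29, without LNCaP EOS 1. CDKN2B, an inhibitor of CDK4 and CDK6, was called lower in LNCaP (adjusted p = 1.04e-05), where it lay below the array's median on all 5 arrays, so no size is given. CDKN2A, whose product p16 inhibits the same kinases, had a difference of -3.53 ± 0.28 (SE, adjusted p = 2.2e-05). CDKN2A read 8.99 on the EOS R array, 10.46 and 9.06 on the EOS arrays and 10.07 and 9.59 on the PGK arrays of LNCaP, against 13.09 on the EOS R array, 13.42 and 13.14 on the EOS arrays and 13.47 and 13.27 on the PGK arrays of DU145. All LNCaP arrays were far below all DU145 arrays. CDKN1A, the CDK inhibitor p21, was higher in LNCaP by 1.55 ± 0.25 (SE, adjusted p = 0.0012), CDKN2D by 1.25 ± 0.22 (SE, adjusted p = 0.0019), and cyclin D1 (CCND1) was lower by a difference of -0.67 ± 0.23 (SE, adjusted p = 0.0423). DU145 is known to lack functional RB protein, and RB1 mRNA was not called between the lines, at -0.10 ± 0.18 (SE, adjusted p = 0.691).

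Of 20 G2/M genes, which act in mitosis, 1 was higher and 13 were lower in LNCaP, with a median of -0.53, against 22.6% and 23.7% of all tested genes. The mitotic kinesin KIF11 differed by -1.26 ± 0.15 (SE, adjusted p = 0.000186), the spindle factor TPX2 by -1.04 ± 0.13 (SE, adjusted p = 0.000282), the kinase AURKA by -1.24 ± 0.16 (SE, adjusted p = 0.000389) and the checkpoint kinase BUB1B by -0.75 ± 0.12 (SE, adjusted p = 0.00089), while CDK1, named after its value was seen, was the 1 gene higher in LNCaP, at 0.80 ± 0.12 (SE, adjusted p = 9e-04). KIF11 read 10.36 on the EOS R array, 10.32 and 10.30 on the EOS arrays and 10.37 and 10.35 on the PGK arrays of LNCaP, against 11.72 on the EOS R array, 11.58 and 11.66 on the EOS arrays and 11.32 and 11.81 on the PGK arrays of DU145. The lines did not overlap. Leaving out single arrays left 8 to 13 lower, with 8 without DU145 PGK 2, the random block left 10 lower, and on unscaled values limma called 0 of the 20. No test compared the lists with each other.

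**Figure D5:**
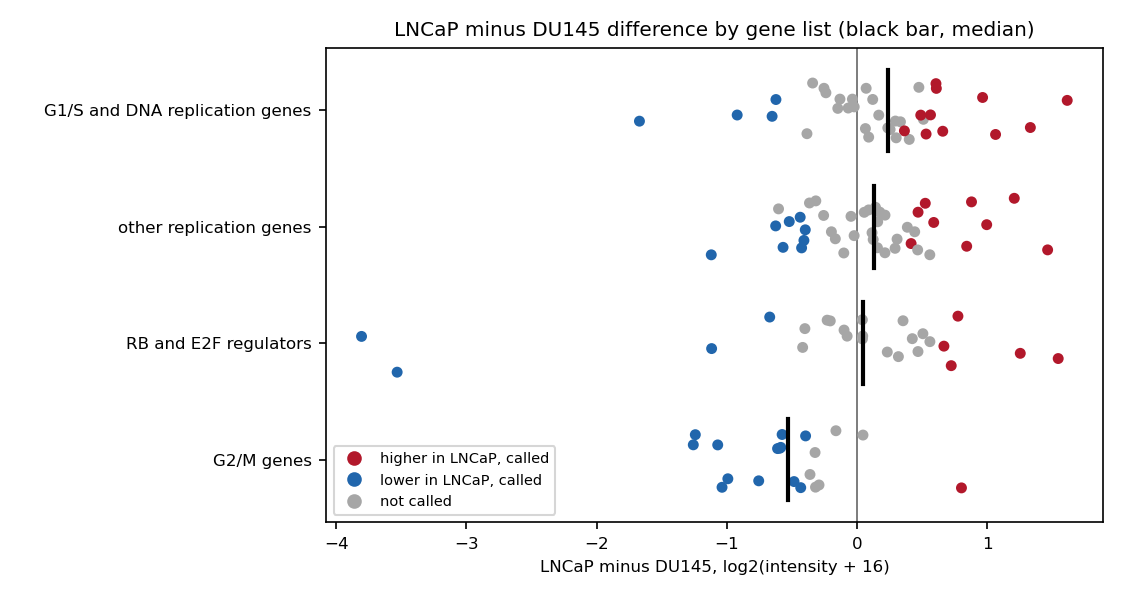
LNCaP minus DU145 difference in log2(intensity + 16) for each gene of 4 lists, red where called higher in LNCaP, blue where called lower and grey where not called, with vertical jitter for visibility only. Black bars are list medians, 0.24, 0.13, 0.04 and -0.53 from the top, and the 2 points left of -3 are CDKN2A and CDKN2B, whose place is not a size because it lay below the array's median in LNCaP.

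In EOS minus PGK, where limma called no gene of the whole table, the list medians in LNCaP and DU145 were -0.14 and 0.10 for other replication genes, -0.03 and 0.03 for RB and E2F regulators, and -0.18 and 0.12 for G2/M genes. In EOS R minus EOS 2 the medians over both lines were -0.01 for other replication genes, 0.01 for RB and E2F regulators and 0.05 for G2/M genes.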

How the data were processed

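Total RNA of 10 samples was measured on Affymetrix expression arrays. The authors deposited linear intensities per probe set. MAS5 and affy appear in the submitters' processing notes, with no version or role, and other steps are not given in the sources used here. Of 54675 probe sets, 62 controls were left out, and 41091 had 1 symbol in the platform annotation, 1801 several and 11721 none; 41037 matched a current gene by Entrez identifier.

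Each array was scaled to a 2% trimmed mean of 500 and turned into log2(intensity + 16), computed here from the deposited intensities, which understates the change of dim genes. Per gene, the probe set of highest mean was kept, if above the array's median on at least 2 arrays. Tests used limma 3.58.1 (R 4.3.3), checked on simulated data, with a mean for each of 6 groups, 4 residual degrees of freedom, eBayes moderation following the intensity, and p-values adjusted by Benjamini-Hochberg over 14277 genes (threshold 0.05). Ribavirin was tested on 4 arrays with line as a term and 1 residual degree of freedom. Values after ± are moderated standard errors from the shared spread. The number of arrays limits the precision.

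Deviations of same-numbered PGK and EOS arrays from their group means correlated across genes, at r = 0.485 in LNCaP and 0.121 in DU145, so line and number were also fitted as a fixed replicate block and, for the line difference, as a random block (duplicateCorrelation, consensus correlation 0.373). Alternatives changed the scaling, pseudocount, filter, probe set choice, trend and arrays used. Values on every array are given for genes past the threshold (at most 8, by smallest p) or, where fewer than 4 pass, the 4 of smallest p, and in other lists for at most 4. The members and lists were chosen with earlier results of these data known.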

Additional observations from a re-analysis of the deposited data

Results flagged for a closer look

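The difference between arrays numbered 2 and 1 was itself different in the lines for 2 genes, by an interaction term in limma added after seeing the data. For RFC3 it was 1.55 higher on the log2 scale in LNCaP than in DU145 (adjusted p = 0.0243), with 1.33 in LNCaP and -0.22 in DU145. For MCM5 it was 1.40 (adjusted p = 0.0466), with 0.78 in LNCaP and -0.62 in DU145. Both calls were lost without DU145 EOS 1 or without DU145 EOS 2, and MCM5 alone was lost without DU145 PGK 1, DU145 PGK 2, LNCaP PGK 1 or LNCaP PGK 2. Both were also lost with the mean of all probe sets (adjusted p = 0.093 and 0.0933) and without the intensity trend (0.232 and 0.265), and MCM5 after quantile normalization (0.0502), with pseudocount 1 (0.0753) and with no filter (0.0583). The other 2 probe sets of RFC3 gave 1.12 and 1.11 in LNCaP and -0.51 and 0.32 in DU145.

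In EOS minus PGK, both pairs of LNCaP went one way and both pairs of DU145 the opposite way for 3 of the 37 genes, 8.11% against 15.3% of all tested genes. The difference between the lines was 0.54 for ORC1, -0.47 for MCM4 and -0.70 for MCM10, each with an adjusted p of 1 from limma's interaction term. MCM10 was at -0.25 and -0.40 in the LNCaP pairs, against 0.69 and 0.06 in the DU145 pairs.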

How the results depend on the processing

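With 2 arrays a group, 4 residual degrees of freedom and 1 treated array a line, the number of arrays limits the precision, and no comparison of EOS with PGK called a gene under any alternative tried other than leaving out an LNCaP array numbered 1. Of the values recomputed under other processing settings, 1012 kept their direction and side of the threshold, 40 lost a call, 71 moved and 4 reversed. Values here are counts called by limma, or median log2 differences of the 37 genes. Where no reason is given the cause was not tested. On unscaled values, which leave overall array brightness in, the line comparison called 0 of the 37 and 475 of all genes, the EOS median in DU145 was -0.11, RRM1 in DU145 was -0.022, and the EOS median difference between the lines was 0.017. Without the intensity trend, the line comparison called 9 members, the numbered arrays in LNCaP 0 members and 107 genes, and the difference of that contrast between the lines 0 members and 0 genes. With the PGK arrays alone, which are fewer, the line comparison called 9 members. The EOS median difference between the lines was -0.15 after quantile normalization and -0.14 with the mean of all probe sets. For numbered arrays between the lines, 1 member was called after quantile normalization, 1 member and 71 genes with pseudocount 1, 1 member and 90 genes with no filter, and 0 members and 48 genes with the mean of all probe sets, where the median was 0.26 and LNCaP alone gave 536 genes. With pseudocount 64, 1 gene was called for numbered arrays in DU145. For ribavirin, 0 genes were called after quantile normalization, with no filter, with the mean of all probe sets (MCM10 at 0.034) and without the trend. Against both EOS arrays in a 6-group fit, 0 genes were called with a median of -0.13, and with the replicate block 0 with a median of -0.14.

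The replicate block, with arrays paired by number within a line, called 18 members and 8014 genes between the lines, adding MCM2, RFC2 and LIG1 to the 15, and changed no other call on the members. A fixed block removes the spread between numbers from the error of a difference between lines, and the random block, which keeps it, called 11 members and 5558 genes. Leaving out 1 array at a time gave 9 to 15 members between the lines, with 9 without DU145 PGK 1, PGK 2 or EOS 2. The EOS median was -0.24 to 0.14 in LNCaP, where 0 to 4 genes were called, and -0.063 to 0.28 in DU145, and its difference between the lines was -0.36 to -0.015. Numbered arrays gave 1 to 5 members and 487 to 939 genes in LNCaP, with 1 member without LNCaP PGK 1 or PGK 2, and 0 to 6 genes in DU145. Between the lines they gave 0 to 2 members, 59 to 209 genes and a median of 0.18 to 0.53. For ribavirin no array could be left out, since 1 line gives no test.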

Other observations

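Epithelial and luminal markers gave values beside the replication genes that the report did not use. In EOS minus PGK, all 4 epithelial markers (KRT8, KRT18, EPCAM and CDH1) were below 0 in DU145, with a median of -0.93, and the median in LNCaP was 0.06. CDH1 lay below the array's median on both EOS arrays of DU145. All 7 luminal androgen-responsive markers were above 0 in LNCaP, with a median of 0.27. Limma called none of these, as it called no gene in these comparisons.

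The genes with the largest line differences, GINS1 and POLE2, whose promoters are not printed here, had an E2F word close to the start. That of GINS1, higher in LNCaP, began 5 bases after the start, and that of POLE2, lower in LNCaP, began at -5.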
